A study of Homo sapiens with 6 samples.

Results

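The genes described here are 48 genes of DNA replication and S-phase entry, chosen by name from the 23686 genes in the count files: 9 for licensing of origins, 12 for the replicative helicase, 20 for polymerases, clamp, clamp loader and single-strand binding, 3 for nucleotide supply, and 4 E2F and cyclin E genes. All 48 were found and all 48 passed the filter on low counts, with between 352 reads (POLE2) and 19091 reads (MCM3) in a library. Their levels were compared in HEK293, a long-established human kidney line of embryonic origin that carries adenoviral E1A. All 6 libraries came from GFP-positive HEK293 cells collected by fluorescence-activated sorting. In the co-culture group (3 samples), they had shared a culture for 10 h with DAAO-bearing HEK293 partners, which make reactive oxygen species (ROS), in 25 µM D-alanine. The control group held 3 sorted GFP-positive samples, named Wt controls, whose treatment is labelled control. DAAO is the oxidase of D-amino acids, and hydrogen peroxide is a product of its reaction. The same protocol text is attached to all samples, so it is not known whether the controls had partner cells or D-alanine. The labels do not name separate cultures, so p-values measure the spread between these samples, which may be technical.

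Replication is prepared in G1, when the origin recognition complex, CDC6 and CDT1 load the MCM2-7 ring onto DNA. In S phase CDC45 and the GINS complex turn that ring into the working helicase, polymerase alpha with primase starts each strand, and polymerases delta and epsilon extend it on the PCNA clamp. Many of these genes are E2F targets: RB family proteins hold E2F back until cyclin-dependent kinases phosphorylate them, and in HEK293 the E1A protein binds RB. Bulk RNA mixes cells of all cycle phases, so fewer cells in S phase and less RNA per cell cannot be told apart here.

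The libraries held 19091085 to 36250314 reads assigned to genes on the reverse strand, of which 134626 to 258332 fell on the 48 genes. VIM was between 925 and 1318 CPM, NEFL between 132 and 190, NEFM between 66.2 and 88.5 and PAX2 between 5.80 and 8.996 CPM, all of which HEK293 cells are known to express. Of 6 markers of other cell types, CD3E had 0 reads in every library and PTPRC, ALB and PECAM1 stayed at or below 0.192 CPM. COL1A1 was the marker with a clear level, at 39.2 to 44.4 CPM in co-culture and 31.0 to 40.2 CPM in controls, and the 6 markers together summed to 40.2 to 45.1 against 31.8 to 41.2 CPM. VIM rose in co-culture, by a log2 fold change of 0.40 (edgeR adjusted p 0.00793). Partner cells are HEK293 too, so these markers do not separate them, and the DAO gene had 0 reads in all 6 libraries. Reads from a DAAO sequence unlike the human gene would not be counted there, so the 0 does not show whether partner cells were present. The part of the marker levels in the values below was not tested. Co-culture libraries 2 and 3 also differed from the other 4 libraries in the median share of reads on the opposite, forward strand of well-covered genes, at 0.124% and 0.211% against 1.57% to 1.75%, and this class is called strand class below.

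None of the 48 replication genes passed the threshold in co-culture against control. The test was edgeR's quasi-likelihood test with Benjamini-Hochberg adjustment over 14582 genes at 0.05, in which 704 genes (4.83%) passed, 388 higher (2.66%) and 316 lower (2.17%). With total counts as the scale 882 genes passed, 35.1% of them higher in place of 55.1%. The smallest adjusted p among the 48 was 0.0556, for LIG1, and 5 of the 48 had an adjusted p under 0.1. The last of these 5, GINS3 (edgeR adjusted p 0.0954), ranked 1466 by p among the 14582 tested genes. At least 1466 of all tested genes were thus under 0.1 too. At an unadjusted p under 0.05 there were 12 of the 48 (25.0%), against 23.2% of all tested genes. Of these, 8 were higher and 4 lower in co-culture, and the shares over all genes were 11.7% and 11.5%. The groups did not overlap in CPM (a gene's reads relative to the library's total, after TMM scaling) for 15 of the 48 (31.2%), 10 higher and 5 lower, against 29.3% of all tested genes (14.3% higher and 15.0% lower). Both shares lay near the background.

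The differences were small and tightly bounded in this fit, which holds no term for strand class. The log2 fold changes ran from -0.22 (GINS3) to 0.26 (LIG1), with a median of 0.03 over the 48 genes and of -0.002 over all tested genes. The median size without sign was 0.06, against 0.13 over all tested genes and 0.10 over the 8830 tested genes within the range of levels of the 48. The standard errors ran from 0.05 (RPA2) to 0.10 (CCNE2). The 95% intervals of single genes, not adjusted for their number, reached at most 0.49 (CCNE2), a 1.40-fold increase, and at lowest -0.38 (GINS3), a decrease of 23.3%. In 33 of the 48 genes the whole interval lay within 0.25 of 0 on the log2 scale, and in 36 it included 0. The other 12 are the genes with an unadjusted edgeR p under 0.05, a share near that of all tested genes (25.0% against 23.2%). How many intervals of all tested genes lay within 0.25 of 0 was not counted. The highest of the 6 libraries exceeded the lowest by a median of 1.16-fold, from 1.06-fold for MCM6 to 1.48-fold for CCNE2.

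**Figure D1:**
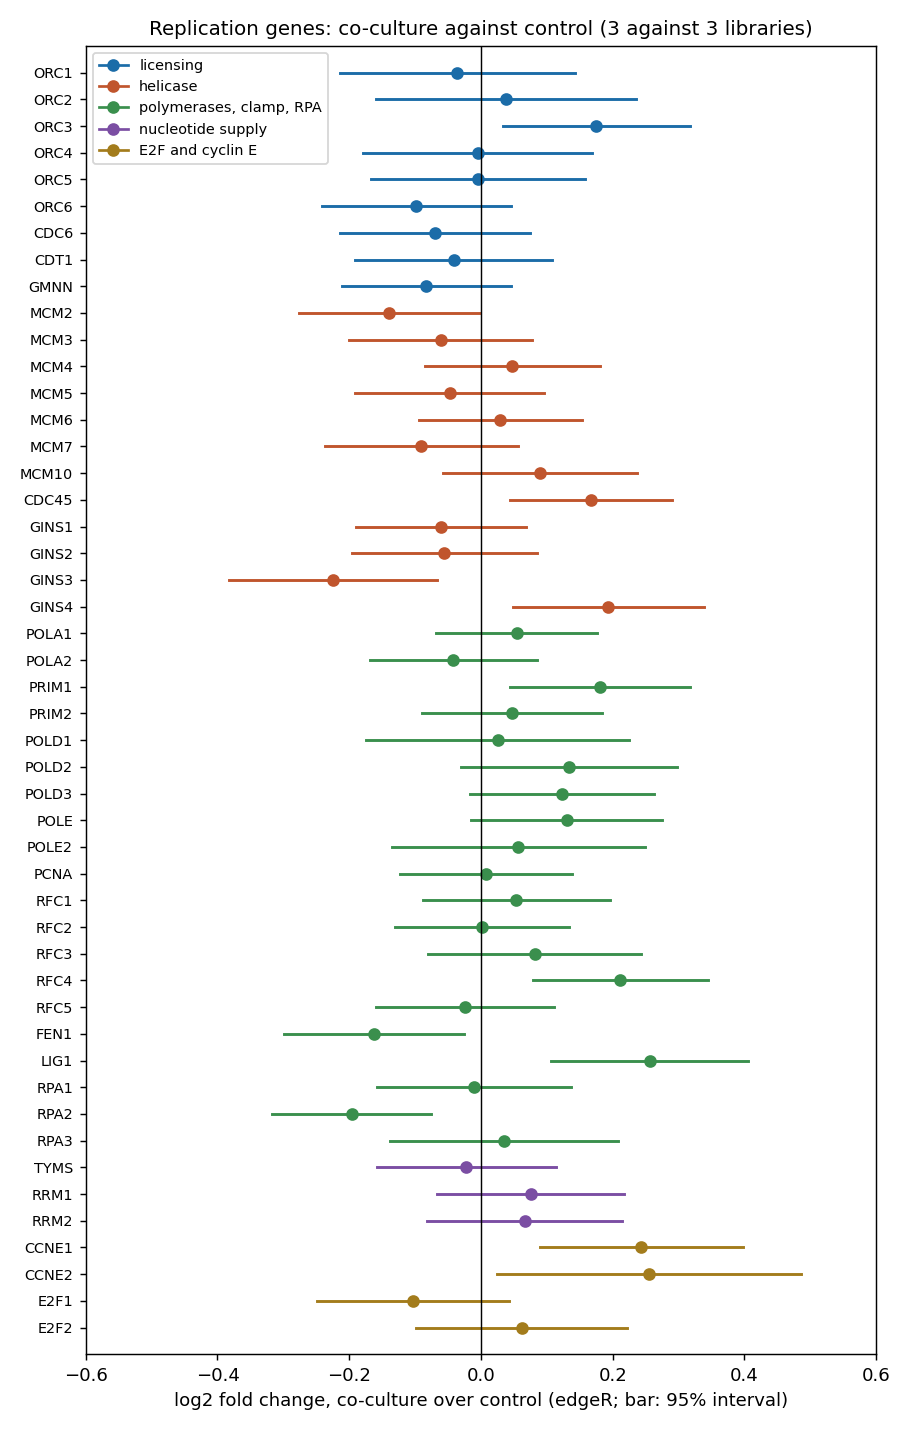
Log2 fold change of each of the 48 replication genes in co-culture over control (horizontal axis), with dots for the edgeR estimates and bars for their 95% intervals, coloured by step (3 libraries a group). All estimates lie between -0.22 and 0.26, and 36 of the 48 intervals include 0. The other 12 (25.0%) have an unadjusted edgeR p under 0.05, as do 23.2% of all tested genes.

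By step the pattern was uneven but within the same narrow range. Of the 9 licensing genes, 7 had a log2 fold change below 0, with a median of -0.04. Of the 12 helicase genes, 7 were below 0 with a median of -0.05. Of the 20 polymerase, clamp and single-strand binding genes, 15 were above 0, with a median of 0.05. The 3 nucleotide supply genes had a median of 0.07 and the 4 E2F and cyclin E genes a median of 0.15. Over all tested genes 49.6% were above 0, and differences between steps were not tested. Summed over all 48 genes, the level was 6940 CPM, 6995 and 7216 CPM in co-culture libraries 1, 2 and 3, and 6915, 7023 and 7117 CPM in controls 1, 2 and 3. Those ranges overlap. With total counts as the scale, 23 of the 48 log2 fold changes were above 0 in place of 27, so the sign of the smallest ones follows the scaling.

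**Figure D2:**
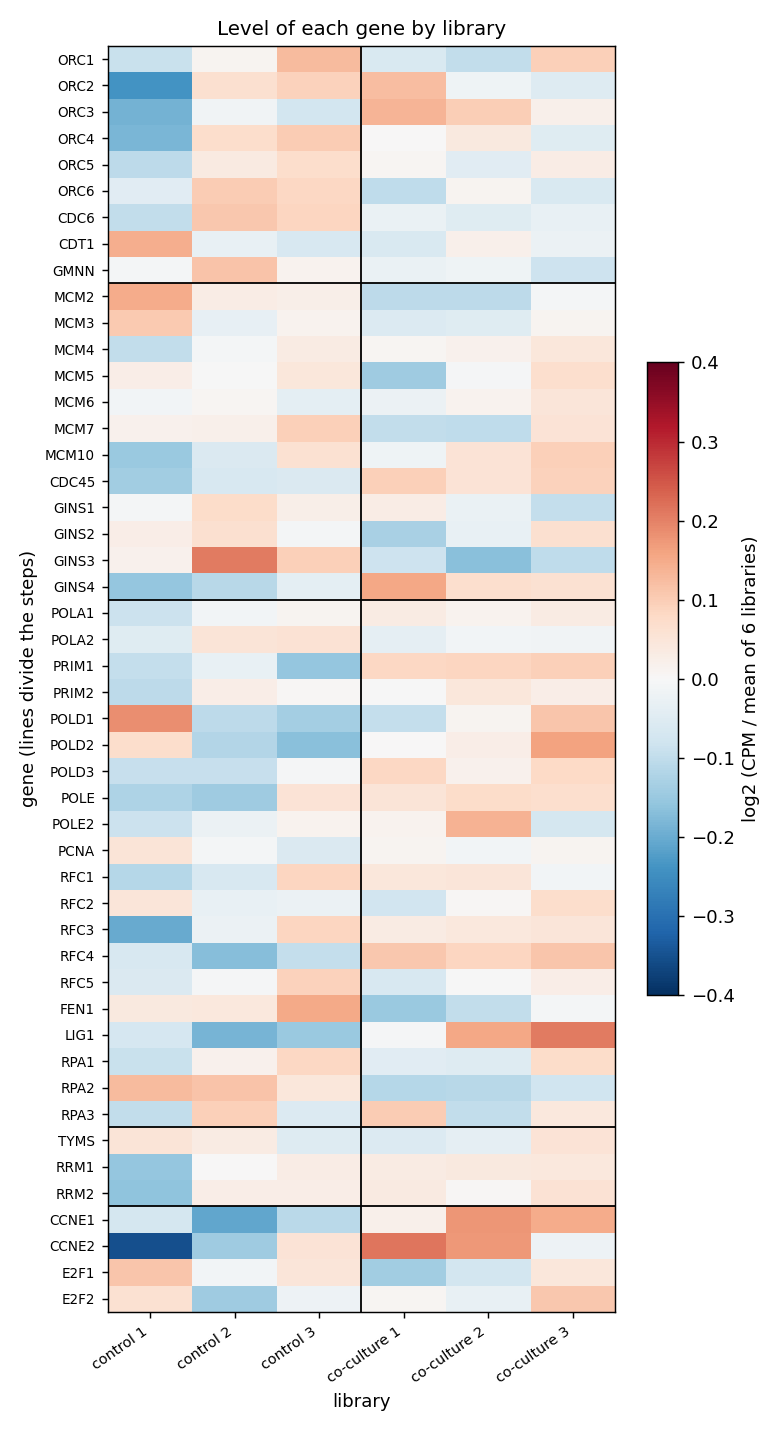
Level of each of the 48 genes (rows, divided by step) in each of the 6 libraries (columns), as log2 of the CPM over the mean of the 6 libraries. Control 1 holds the lowest of the 3 control values for 29 of the 48 genes, and no step separates the groups as a block.

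Promoter sequence, which the selection did not use, was searched for E2F motifs. RefSeq promoter windows (GRCh38.p14), which run from 250 bases before to 50 bases after a gene's start, were present for 41 of the 48 genes. The motifs, searched on both strands, were TTTCCCGC, TTTCGCGC, TTTGCCGC and TTTGGCGC. At least 1 match was found for 21 of the 41 genes (51.2%), while 3.99% of all 27305 genes in the table had one. Counted by window, 21 of the 51 windows of these genes and 3.31% of all 35116 windows had one. Median GC content was 65.7% in the windows of the replication genes and 58.7% in all windows and the part of base composition in the share was not tested. By step the matches fell on 7 of 9 helicase genes, 4 of 9 licensing genes, 7 of 17 polymerase and clamp genes, 1 of 3 nucleotide supply genes (TYMS) and 2 of 3 E2F and cyclin E genes. The median log2 fold change was -0.04 for the 21 genes with a match (9 above 0) and 0.04 for the 20 without (13 above 0). This difference was not tested, and the matches were spread unevenly over the steps. A match is a description of letters, and its absence says only that these letters are not in the window.

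Windows are shown for the genes with the smallest p that had one, LIG1, RFC4, CCNE1 and GINS3, and for MCM6 and E2F1, chosen after the search as genes with more than 1 match. Each is written 5′ to 3′ on the gene's strand, with matches in capitals.
LIG1 (chr19:48170295-48170594, minus strand): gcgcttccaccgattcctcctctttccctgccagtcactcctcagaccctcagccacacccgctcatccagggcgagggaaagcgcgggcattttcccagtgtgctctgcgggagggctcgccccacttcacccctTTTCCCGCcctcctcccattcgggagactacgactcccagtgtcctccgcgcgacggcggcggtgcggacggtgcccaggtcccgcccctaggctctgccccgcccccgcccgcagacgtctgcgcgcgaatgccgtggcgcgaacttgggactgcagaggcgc
RFC4 (chr3:186806433-186806732, minus strand): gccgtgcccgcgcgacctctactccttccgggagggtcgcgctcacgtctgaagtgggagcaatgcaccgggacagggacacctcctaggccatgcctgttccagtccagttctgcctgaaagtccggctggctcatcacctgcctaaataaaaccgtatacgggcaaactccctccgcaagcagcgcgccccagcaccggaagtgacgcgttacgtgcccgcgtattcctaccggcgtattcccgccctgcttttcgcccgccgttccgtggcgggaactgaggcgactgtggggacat
CCNE1 (chr19:29811741-29812040, plus strand): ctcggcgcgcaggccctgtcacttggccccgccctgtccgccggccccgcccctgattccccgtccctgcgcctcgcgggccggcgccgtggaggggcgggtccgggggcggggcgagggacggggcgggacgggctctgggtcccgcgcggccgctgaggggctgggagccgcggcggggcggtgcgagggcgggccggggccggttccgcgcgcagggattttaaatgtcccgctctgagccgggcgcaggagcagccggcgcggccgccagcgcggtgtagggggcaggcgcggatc
GINS3 (chr16:58392221-58392520, plus strand): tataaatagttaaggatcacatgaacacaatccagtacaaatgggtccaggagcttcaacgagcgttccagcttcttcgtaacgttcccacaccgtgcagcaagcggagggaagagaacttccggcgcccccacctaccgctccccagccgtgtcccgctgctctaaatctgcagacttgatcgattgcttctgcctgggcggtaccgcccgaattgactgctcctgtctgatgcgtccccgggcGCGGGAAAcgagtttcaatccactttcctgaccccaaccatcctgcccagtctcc
MCM6 (chr2:135876394-135876693, minus strand): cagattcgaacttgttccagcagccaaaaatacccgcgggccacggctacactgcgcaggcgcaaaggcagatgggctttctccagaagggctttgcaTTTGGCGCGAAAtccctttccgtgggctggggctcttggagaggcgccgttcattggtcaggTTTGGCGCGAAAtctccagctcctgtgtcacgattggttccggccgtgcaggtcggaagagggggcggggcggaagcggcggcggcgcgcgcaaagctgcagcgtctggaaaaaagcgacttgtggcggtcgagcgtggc
E2F1 (chr20:33686336-33686635, minus strand): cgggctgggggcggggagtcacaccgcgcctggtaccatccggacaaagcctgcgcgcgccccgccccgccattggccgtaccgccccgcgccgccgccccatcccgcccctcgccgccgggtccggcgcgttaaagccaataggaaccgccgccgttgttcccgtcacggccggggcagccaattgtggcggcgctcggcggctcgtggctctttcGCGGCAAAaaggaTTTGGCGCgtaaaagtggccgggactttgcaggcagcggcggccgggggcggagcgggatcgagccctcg
The LIG1 match begins 114 bases before the start and the GINS3 match 5 bases before it. RFC4 and CCNE1 have no match in their windows. In MCM6, 4 matches form overlapping pairs, beginning 152 and 148 bases and 90 and 86 bases before the start, and E2F1 has matches 33 and 20 bases before its own. RPA2 is not in the table.

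Among the licensing genes, ORC3 had the smallest p. ORC3 encodes a subunit of the origin recognition complex, which marks origins. Its level was 105, 103 and 97.3 CPM in co-culture libraries 1, 2 and 3 and 84.2, 94.9 and 91.1 CPM in controls 1, 2 and 3. All co-culture values were above all controls, and its log2 fold change was 0.18 (SE 0.06, 95% interval 0.03 to 0.32, edgeR adjusted p 0.135). ORC6, the smallest subunit of the complex, stood at 67.9, 73.4 and 69.8 CPM in co-culture and 70.6, 78.2 and 77.2 CPM in controls. Its groups overlapped, with a log2 fold change of -0.10 ± 0.07 SE (adjusted p 0.396 by edgeR). GMNN encodes geminin, which binds CDT1 and blocks a second round of licensing. GMNN was at 139, 139.8 and 134 CPM in co-culture and 141, 153 and 143 CPM in controls. The lowest control lay just above the highest co-culture library, with a log2 fold change of -0.08 (SE 0.06, 95% interval -0.21 to 0.05, edgeR adjusted p 0.424). CDT1 had a log2 fold change of -0.04 (SE 0.07), and CDC6, the loading ATPase, of -0.07 (SE 0.07). ORC1, ORC2, ORC4 and ORC5 lay between -0.04 and 0.04, and their groups overlapped.

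The MCM2-7 subunits form the ring that unwinds DNA, and none of the 6 passed the threshold. Log2 fold changes were 0.05 for MCM4 and 0.03 for MCM6, and -0.05, -0.06, -0.09 and -0.14 for MCM5, MCM3, MCM7 and MCM2, and differences between subunits were not tested. MCM2 was the lowest of them and stood at 181, 181 and 194 CPM in co-culture and 216, 199 and 198 CPM in controls. Its groups did not overlap, and its SE was 0.06 (edgeR adjusted p 0.205). MCM7 was at 475, 473 and 528 CPM in co-culture and 514, 515 and 542 CPM in controls, so that co-culture library 3 lay among the controls (SE 0.07, edgeR adjusted p 0.447). MCM10, which helps to switch on the helicase, was at 105, 111 and 114 CPM in co-culture and 96.1, 102 and 111 CPM in controls (0.09 ± 0.07 SE in log2 fold change, adjusted p 0.452 by edgeR).

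Of the proteins that join the ring, CDC45 was at 99.5, 96.7 and 99.2 CPM in co-culture and 84.6, 89.1 and 89.4 CPM in controls. All 3 co-culture libraries were above the controls, with a log2 fold change of 0.17 (SE 0.06, 95% interval 0.04 to 0.29, edgeR adjusted p 0.108). The 4 GINS genes encode 1 complex, and their log2 fold changes ran in both directions. GINS4 was at 54.0, 50.9 and 50.6 CPM in co-culture and 43.7, 45.0 and 47.3 CPM in controls. Its groups were apart, with a log2 fold change of 0.19 (SE 0.07, 95% interval 0.05 to 0.34, edgeR adjusted p 0.112). GINS3 was at 38.9, 36.7 and 38.4 CPM in co-culture and 41.6, 47.5 and 44.0 CPM in controls. Its groups were apart in the other direction, with a log2 fold change of -0.22 (SE 0.07, 95% interval -0.38 to -0.07, edgeR adjusted p 0.0954). GINS3 also had 5.67% of its reads on the forward strand, between 4.66% and 7.52% in single libraries, and those reads are not in its counts. GINS1 and GINS2 both had a log2 fold change of -0.06 and overlapping groups. Differences between the GINS genes were not tested.

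LIG1 had the smallest p of the 48 genes. It encodes DNA ligase I, which seals Okazaki fragments. Its level was 106, 118 and 123 CPM in co-culture libraries 1, 2 and 3 and 101, 93.3 and 95.6 CPM in controls 1, 2 and 3. Co-culture library 1 lay closest to the controls, though above all of them. The log2 fold change was 0.26 (SE 0.07, 95% interval 0.11 to 0.41, edgeR adjusted p 0.0556). FEN1, the nuclease that trims the flap before LIG1 acts, had the opposite sign. It was at 123, 127 and 136 CPM in co-culture and 140.4, 141 and 152 CPM in controls, with no overlap and a log2 fold change of -0.16 (SE 0.06, 95% interval -0.30 to -0.03, edgeR adjusted p 0.147). PCNA, the sliding clamp that binds both enzymes, was at 434, 428 and 435 CPM in co-culture and 447, 429 and 414 CPM in controls. Its co-culture values lay inside the range of the controls, with a log2 fold change of 0.01 (95% interval -0.12 to 0.14).

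The clamp loader RFC1-5 opens PCNA and places it on DNA. RFC4 was at 68.6, 67.6 and 68.7 CPM in co-culture and 60.9, 56.5 and 59.5 CPM in controls. The co-culture libraries were nearly equal and all above the controls, with a log2 fold change of 0.21 (SE 0.06, 95% interval 0.08 to 0.34, edgeR adjusted p 0.0694). The other 4 subunits had log2 fold changes between -0.02 (RFC5) and 0.08 (RFC3) and overlapping groups. Replication protein A coats single-stranded DNA as a complex of RPA1, RPA2 and RPA3. RPA2 was at 110.4, 111 and 113 CPM in co-culture and 130.4, 129 and 123 CPM in controls. The groups were apart, with a log2 fold change of -0.20 (SE 0.05, 95% interval -0.32 to -0.08, edgeR adjusted p 0.0644). RPA1 had a log2 fold change of -0.01 (SE 0.07) and RPA3 of 0.04 (SE 0.08).

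Among the polymerases, PRIM1, the catalytic subunit of primase, was at 61.2, 61.3 and 61.7 CPM in co-culture and 54.1, 56.6 and 52.0 CPM in controls. The groups were apart, with a log2 fold change of 0.18 (SE 0.06, 95% interval 0.04 to 0.32, edgeR adjusted p 0.115). Its partner PRIM2 had a log2 fold change of 0.05, POLA1 (the polymerase alpha catalytic subunit) of 0.05 and POLA2 of -0.04. POLE, the catalytic subunit of polymerase epsilon on the leading strand, was at 240.1, 244 and 242 CPM in co-culture and 213, 210.0 and 241 CPM in controls. Control 3 lay inside the co-culture range (0.13 ± 0.07 SE in log2 fold change, adjusted p 0.264 by edgeR). POLD3, an accessory subunit of polymerase delta, was at 54.2, 51.7 and 54.0 CPM in co-culture and 47.9, 47.9 and 51.0 CPM in controls. Its groups were just apart (0.12 ± 0.06 SE in log2 fold change, adjusted p 0.276 by edgeR). POLD2, another subunit, was at 129.6, 132 and 145 CPM in co-culture and 136, 119.6 and 115 CPM in controls. Control 1 lay inside the co-culture range (0.13 ± 0.07 SE in log2 fold change, adjusted p 0.308 by edgeR). POLD1 and POLE2 had log2 fold changes of 0.03 and 0.06.

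**Figure D3:**
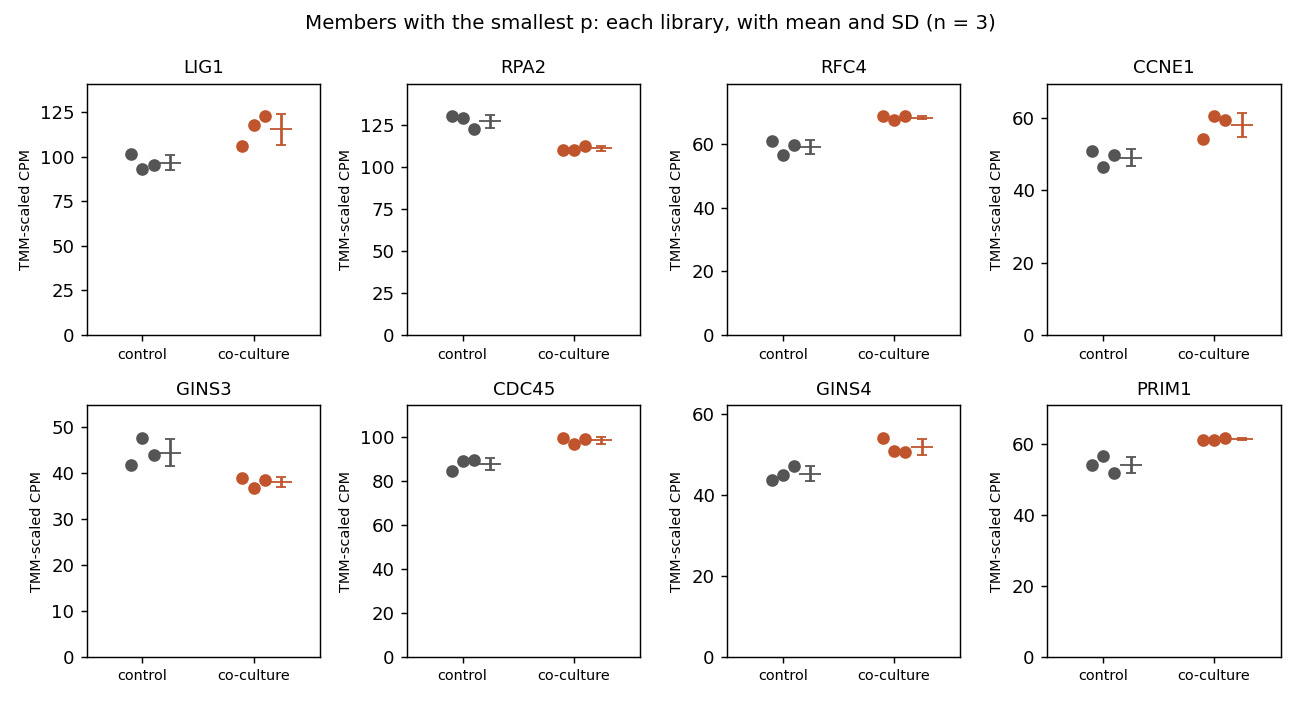
TMM-scaled CPM of the 8 replication genes with the smallest p in each library (dots), with the mean and SD of each group (n = 3), on axes that start at 0. The groups do not overlap for any of the 8, but picking by p favours such genes, and 29.3% of all tested genes had groups apart. RPA2 and GINS3 are lower in co-culture and the other 6 higher, and the lowest edgeR adjusted p is 0.0556 (LIG1).

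In nucleotide supply 0 of 3 genes had an unadjusted p under 0.05. Ribonucleotide reductase (RRM1 with RRM2) makes deoxynucleotides and TYMS makes thymidylate. RRM1 was at 332, 333 and 334 CPM in co-culture and 292, 325 and 331 CPM in controls. Control 1 stood apart, and the other 2 controls lay just below the co-culture libraries (log2 fold change 0.08, SE 0.06, 95% interval -0.07 to 0.22, edgeR adjusted p 0.519). Without control 1 it was 0.02 (edgeR adjusted p 0.793). RRM2 and TYMS had log2 fold changes of 0.07 and -0.02, at adjusted p 0.591 and 0.862 by edgeR.

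Cyclin E activates CDK2 at the G1/S transition, and E2F1 and E2F2 are activating E2F factors. CCNE1 was at 54.3, 60.5 and 59.4 CPM in co-culture and 51.0, 46.4 and 49.8 CPM in controls. The groups were apart, with a log2 fold change of 0.24 (SE 0.07, 95% interval 0.09 to 0.40, edgeR adjusted p 0.0717). CCNE2 was at 44.9, 43.7 and 38.2 CPM in co-culture and 30.4, 35.1 and 40.3 CPM in controls. Control 3 lay above co-culture library 3, and the log2 fold change was 0.25 (SE 0.10, 95% interval 0.02 to 0.49, edgeR adjusted p 0.174). CCNE2 had the largest share of forward-strand reads of the 48 genes, 7.15%. E2F1 was at 81.2, 85.0 and 92.2 CPM in co-culture and 96.6, 88.8 and 92.5 CPM in controls. Co-culture library 3 lay among the controls, with a log2 fold change of -0.10 (SE 0.07, 95% interval -0.25 to 0.04, edgeR adjusted p 0.381). E2F2 had a log2 fold change of 0.06 (SE 0.07).

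The other 27 genes, given above by range or single values, had log2 fold changes between -0.07 (CDC6) and 0.08 (RFC3) and edgeR adjusted p-values between 0.541 and 0.988.

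Levels between genes were compared per length, as control CPM per kb of the longest protein-coding transcript in GENCODE release 29, since the authors' gene models are not given in the sources used here. PCNA was highest at 317 CPM per kb, followed by TYMS at 205, MCM7 at 169.9 and MCM3 at 168. POLE2 was lowest at 10.3, next to E2F2 at 10.5 and CCNE2 at 10.6, and the median was 35.8. Subunits that act in 1 complex were not equal in this measure. MCM4 and MCM6 lay at 78.6 and 75.2 and MCM2 and MCM5 at 56.5 and 52.1, so the ring genes spanned from 52.1 to 169.9. The origin recognition genes ran from 10.7 (ORC4) to 44.3 (ORC6) and the GINS genes from 11.7 (GINS4) to 36.7 (GINS2). GMNN was at 115 and CDT1, the protein geminin inhibits, at 28.9. Neighbours such as MCM7 and MCM3, or POLE2, E2F2 and CCNE2, overlapped between the 3 controls and are not ordered by these data. Transcript ends and isoforms differ between annotations, so the values are approximate.

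**Figure D4:**
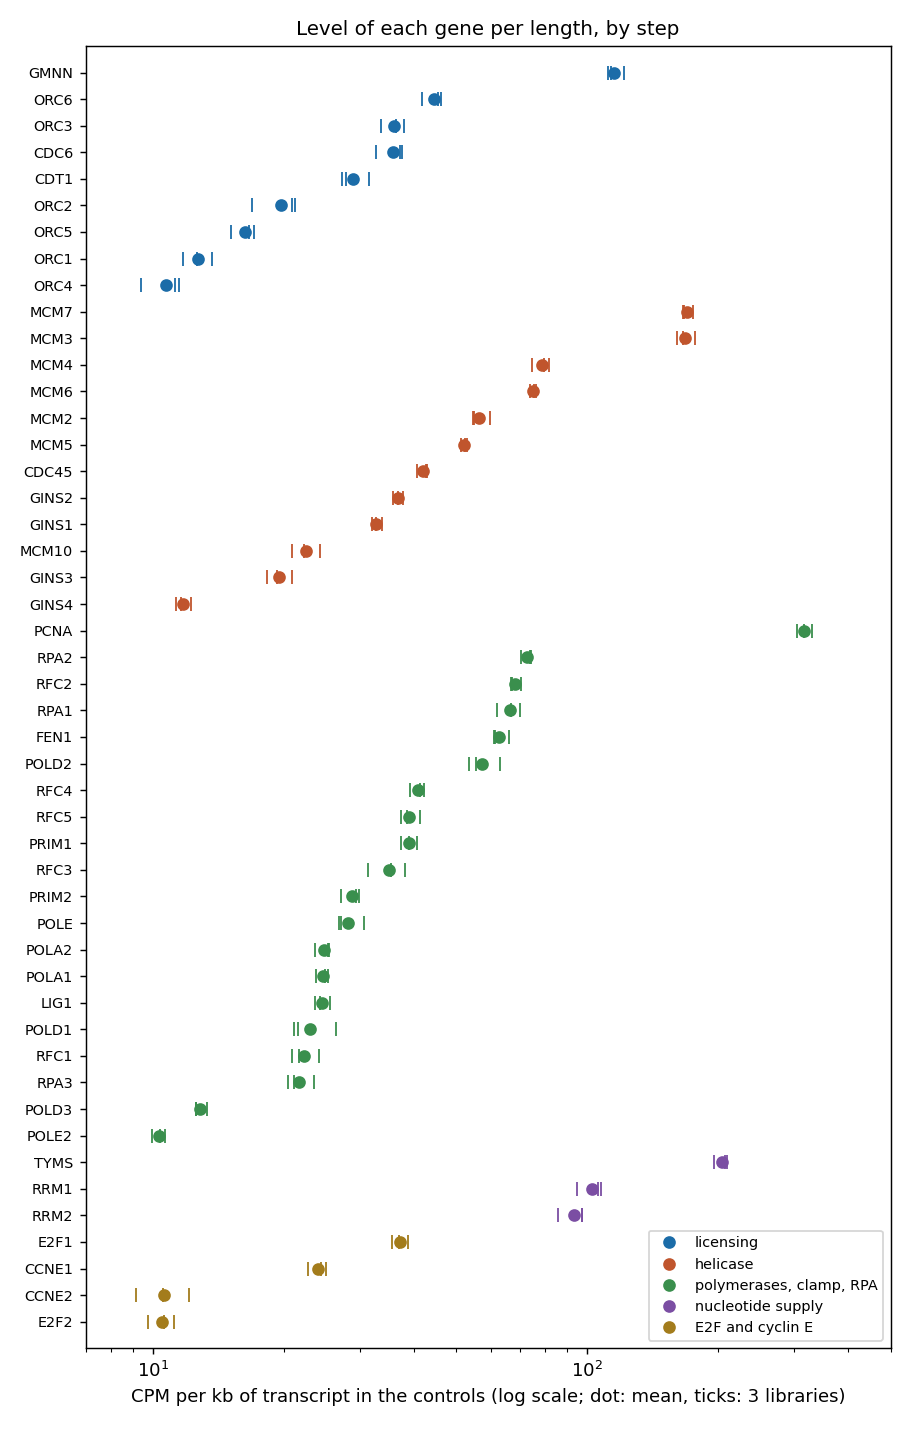
Control level of each of the 48 genes in CPM per kb of transcript on a log axis, by step, with the mean as a dot and the 3 control libraries as ticks. PCNA is highest at 317 and POLE2 lowest at 10.3, and the MCM2-7 genes span from 52.1 to 169.9.

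The count of 0 held in most but not all other fits. By limma-voom 0 of the 48 genes passed (4.63% of all genes), and by DESeq2 only LIG1 did (log2 fold change 0.26, adjusted p 0.0266; 7.52% of all genes). When low-count genes were kept in the edgeR fit, LIG1 passed too (adjusted p 0.0391; 4.50% of all genes), and RPA2 with total counts as the scale (log2 fold change -0.23, edgeR adjusted p 0.0345; 6.05% of all genes). Control 1 had the largest influence. Without it 20.8% of all tested genes passed and 8 of the 48 did (16.7%): LIG1, CCNE1, RFC4, POLD2 and PRIM1 higher, at log2 fold changes of 0.29, 0.27, 0.23, 0.21 and 0.18, and GINS3, FEN1 and RPA2 lower, at -0.27, -0.18 and -0.18 (edgeR adjusted p from 0.00275 to 0.0455). Without control 3, CCNE2 passed (log2 fold change 0.36, edgeR adjusted p 0.0476; 5.00% of all genes), while without control 1 its log2 fold change was 0.16 (edgeR adjusted p 0.191). Other named genes that did not pass also moved with 1 library: POLE to 0.20 without control 3, E2F1 to -0.06 without co-culture library 1, GMNN to -0.05 without control 2 and MCM7 to -0.14 without co-culture library 3. POLD2 was at 0.08 without co-culture library 3 and 0.09 without control 3, and MCM10 at 0.04 without control 1 and 0.15 without control 3. In each fit that called any of the 48, the share among the replication genes was below the share among all genes.

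With strand class as a batch term 0 of the 48 genes and 0.199% of all genes passed, and in that fit only co-culture library 1 is set against the controls. Its log2 fold changes were 0.13 for LIG1 and 0.15 for CCNE1, in place of 0.26 and 0.24. It gave -0.21 for RPA2, 0.22 for RFC4, -0.19 for GINS3, 0.18 for CDC45, 0.25 for GINS4, 0.18 for PRIM1, 0.23 for ORC3, -0.23 for FEN1, 0.35 for CCNE2 and -0.17 for MCM2. All 12 kept their sign, but they had been picked by small p in these same libraries. Co-culture library 1 already lay beyond every control in each of the 12, so the kept sign is no separate support. Strand class and co-culture cannot be told apart within co-culture libraries 2 and 3.

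**Figure D5:**
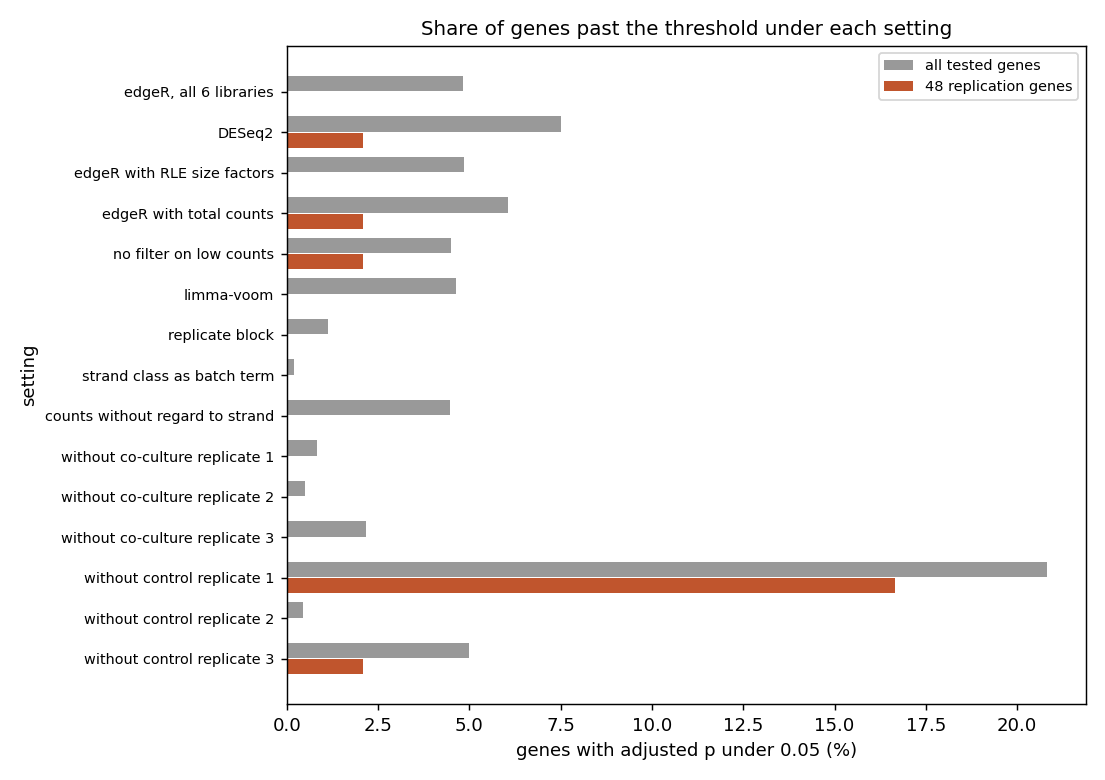
Share of genes with an adjusted p under 0.05 (horizontal axis, percent) among all tested genes (grey bars) and the 48 replication genes (coloured bars), under each setting of the analysis (rows). The replication genes reach 16.7% without control 1, where all genes reach 20.8%, and 0% in the fit with edgeR, TMM scaling and the low-count filter on all 6 libraries.

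Of 45 other genes of DNA replication, taken from general knowledge, 2 rose and 0 fell in co-culture (4.44%, against 4.83% of all tested genes), with a median log2 fold change of 0.07. At an unadjusted p under 0.05, 4 were higher and 7 lower (24.4%, against 23.2% of all genes). WDHD1, which links the helicase to polymerase alpha, rose from 72.4, 68.0 and 68.2 CPM in the controls to 86.5, 85.9 and 79.4 CPM. Its log2 fold change was 0.27 ± 0.06 SE (adjusted p 0.0360 by edgeR). POLD4, the smallest polymerase delta subunit, rose from 11.3, 10.1 and 10.8 CPM to 16.0, 13.1 and 15.1 CPM (0.46 ± 0.11 SE in log2 fold change, adjusted p 0.0400 by edgeR). Both calls were lost when any library other than control 1 was omitted, and with total counts as the scale (0.24 and 0.42, edgeR adjusted p 0.0545 and 0.0530). Without regard to strand WDHD1 missed the threshold too (0.24, edgeR adjusted p 0.0712). With a library other than control 1 omitted, WDHD1 stood between 0.25 and 0.31 (edgeR adjusted p 0.0529 to 0.191) and POLD4 between 0.40 and 0.53 (0.0533 to 0.179). Without control 1 they stood at 0.30 and 0.50 (edgeR adjusted p 0.00168 and 0.0038). With strand class as a term their values were 0.31 and 0.58, and neither passed.

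Of 37 regulators of the G1/S transition 0 rose and 3 fell (8.11%, against 4.83% of all tested genes in either direction and 2.17% lower), with a median log2 fold change of -0.01. At an unadjusted p under 0.05 the list held 5 genes (13.5%), against 23.2% of all genes. CDKN2C encodes p18, an inhibitor of CDK4 and CDK6. It fell from 67.1, 78.5 and 77.5 CPM in the controls to 50.04, 54.5 and 54.7 CPM, a log2 fold change of -0.49 ± 0.08 SE (adjusted p 0.00719 by edgeR). CDKN1B encodes p27, which inhibits cyclin E with CDK2. It fell from 80.0, 92.2 and 104 CPM to 76.2, 69.1 and 65.7 CPM (-0.39 ± 0.09 SE in log2 fold change, adjusted p 0.0434 by edgeR). LIN52, a subunit of the DREAM complex that represses cell cycle genes, fell from 17.9, 21.0 and 22.4 CPM to 15.5, 15.9 and 15.4 CPM (-0.39 ± 0.10 SE in log2 fold change, adjusted p 0.0466 by edgeR). CDKN2C missed the threshold when co-culture library 1 or 2 or control 2 was left out, at -0.44, -0.50 and -0.45 (edgeR adjusted p 0.0546, 0.0573 and 0.0662). Of the 6 fits on 5 libraries, CDKN1B and LIN52 passed in the one that omitted control 1. In the others CDKN1B lay between -0.45 and -0.29 (edgeR adjusted p 0.0613 to 0.190) and LIN52 between -0.40 and -0.32 (0.0975 to 0.183). With strand class as a term the 3 genes were at -0.57, -0.27 and -0.40, and none passed.

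A list of 25 G2 and M phase genes was taken for reference, and 2 of 25 rose and 0 fell, with 4.83% of all tested genes past the threshold and 2.66% higher, and the median log2 fold change was 0.07. Both are named here after their values were seen. HMMR, a spindle-associated protein and hyaluronan receptor, rose from 64.9, 57.5 and 64.1 CPM to 110.5, 114 and 85.3 CPM (0.73 ± 0.11 SE in log2 fold change, adjusted p 0.00669 by edgeR). BUB1, a spindle checkpoint kinase, rose from 194, 227 and 229 CPM to 271, 259 and 262 CPM (0.29 ± 0.07 SE in log2 fold change, adjusted p 0.0478 by edgeR). HMMR missed the threshold when control 1 or 2 was left out, at 0.76 and 0.68 (edgeR adjusted p 0.0525 and 0.0548). BUB1 missed it when any 1 co-culture library or control 2 was left out, between 0.27 and 0.32 (edgeR adjusted p 0.1004 to 0.173). With strand class as a term they were at 0.83 and 0.33, and neither passed.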

How the data were processed

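RNA was extracted with TriPure and sequenced as stranded mRNA libraries, per the labels' protocols. The authors deposited 1 file of raw read counts per gene for each of the 6 samples, in STAR's layout of gene counts. STAR (given as version 2.53a), FastQC and the build hg18 are named in the submitters' processing notes. The annotation release is not given in the sources used here. STAR leaves reads that map to several places uncounted, so genes with near-identical copies or pseudogenes are undercounted.

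Reverse-strand counts were used, with the 4 summary lines left out: in them 1.22% to 1.67% of reads were unmapped, 6.48% to 8.42% multimapping, 14.8% to 17.7% without a gene and 0.835% to 1.01% ambiguous. A single read was worth 0.0279 to 0.0522 CPM, and a count of 0 has an upper limit of 3 reads (0.0838 to 0.156 CPM), which covers counting error only. The fit used edgeR 4.0.16 in R 4.3.3 and a model holding group alone, filterByExpr at a minimum count of 10 (14582 of 23686 genes), TMM scaling and robust quasi-likelihood tests. The standard error is the absolute log2 fold change over the square root of F. Libraries within a group differed by a chi-square per degree of freedom of 4.56 to 17.7, and libraries of different groups by 12.8 to 22.1. Each library was counted as 1 sample, though these values do not show whether the samples came from separate cultures. The code was tested on simulated data. Alternatives were DESeq2 1.42.0, limma-voom 3.58.1, 2 other scalings, no low-count filter, unstranded counts, a replicate block, strand class and leaving out each library.

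The 48 genes and all lists were chosen with earlier results of these data known. The rule for named genes gave every library's value for the 20 members with the smallest p and the smallest p of each step, and for genes of the other lists past the threshold.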

Additional observations from a re-analysis of the deposited data

How the results depend on the processing

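The number of the 48 replication genes past the threshold was 0 in either direction with edgeR. It was 1 higher with DESeq2 and without a low-count filter, and 1 lower with total counts. Leaving out single libraries gave 0 to 5 higher and 0 to 3 lower, the highest values being those without control 1. Their median log2 fold change stayed between -0.01 and 0.03 in the 14 alternatives. All 21 named replication genes kept their sign in all 14, but they were named by small p and the fits share libraries. Among all 48 genes, 23 were above 0 with total counts in place of 27. Over all genes 704 passed, 164 with the replicate block, 29 with strand class as a term, and 65 (without control 2) to 3069 (without control 1) with 1 library left out. Of the other replication genes 2 passed, 0 with total counts, the replicate block or strand class and 1 with unstranded counts; leaving out a library gave 0 to 10. Of the G1/S regulators 3 passed, 1 with the replicate block and 0 with strand class; leaving out a library gave 0 to 6. The cause was not tested. No pairing by replicate number was seen: deviations of same-numbered libraries from their group means correlated at -0.04, -0.09 and -0.09 across genes. Deviations within a group sum to 0, so these values are not independent and cannot exclude a pairing. With the block 0 of the 48 genes passed, and of the 7 other genes named as changed WDHD1, POLD4, CDKN1B, LIN52 and BUB1 missed the threshold (edgeR adjusted p 0.0860 to 0.117). Each of the 48 genes had 352 reads or more in a library; counting error and spread between libraries were not separated in the intervals.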

Other observations

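CENPE, a kinesin of the mitotic spindle, varied several-fold between libraries within each group, at 72.4, 68.3 and 15.4 CPM in co-culture libraries 1, 2 and 3 and 75.4, 15.2 and 39.9 CPM in controls 1, 2 and 3. CENPF, a kinetochore protein, was at 523, 548 and 293 CPM in co-culture and 395, 297 and 403 CPM in controls. ATAD5, which helps to unload PCNA after replication, was at 73.1, 79.9 and 47.4 CPM in co-culture and 54.3, 40.6 and 52.8 CPM in controls. In all 3 genes co-culture libraries 1 and 2 were far above co-culture library 3, and control 2 was the lowest of the controls. HMMR, named above as higher in co-culture, was also lowest in co-culture library 3 (85.3 CPM) and control 2 (57.5 CPM) within each group. CENPE, CENPF and ATAD5 were picked out after their values were seen. The highest library exceeded the lowest by at most 1.48-fold among the 48 replication genes.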
